A study of Mus musculus with 16 samples.

Results

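The neutrophil granule genes described here are S100a8, S100a9, Ngp, Camp, Lcn2, Ltf and Mmp8, 7 of the 18194 genes measured on expression arrays of mouse skeletal muscle. They were chosen by gene symbol in the probe annotation. Each had exactly 1 probe set (1419394_s_at, 1448756_at, 1418722_at, 1419691_at, 1427747_a_at, 1450009_at and 1449366_at, in that order), so no choice between probe sets was needed. The study placed Galgt2 (B4galnt2), which encodes a glycosyltransferase acting on cell surface glycans, into normal and dystrophin-deficient gastrocnemius muscle. All muscle arrays came from male mice aged 2 months, with 2 arrays in each of 6 groups. The first array set held wild-type muscle (C57BL/6J), mdx muscle, which lacks dystrophin (C57BL/10J), Galgt2 Transgenic muscle (C57BL/6J) and Galgt2 Transgenic mdx muscle (C57BL/10J x C57BL/6J). The second held mdx muscle (C57BL/10J) given AAV-Galgt2, a viral vector carrying the gene, and the muscle of the other side given phosphate-buffered saline (PBS). The remaining arrays were 1 each of myoblasts and myotubes of C2C12, a mouse muscle cell line, and of C2C12-Galgt2, a line stably transfected with the gene. The promoter that drives the transgene is not given in the sources used here. Against wild type, mdx and strain background cannot be told apart. Strain also differs between transgenic mdx and mdx muscle, so transgene and strain cannot be told apart there or in the interaction.

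Neutrophils are short-lived white blood cells made in the bone marrow and among the first to enter injured muscle. As they mature they fill primary granules (myeloperoxidase, elastase), then secondary granules (Ngp, Camp, Lcn2, Ltf, Mmp8), and these transcripts are made mostly before the cell leaves the marrow. S100a8 and S100a9 are not granule proteins in the strict sense: they form calprotectin, a calcium- and metal-binding complex that fills the cytosol of neutrophils and is also made by monocytes and some other activated cells. Lcn2 too can be induced outside neutrophils, in epithelium and other tissues. In bulk muscle, more or fewer cells of a type and more or less RNA per cell cannot be told apart.

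Values are log2 of the deposited linear intensity, and errors are standard errors of limma with 2 arrays per group. Adjusted p-values are from limma with Benjamini-Hochberg adjustment over all genes, and "called" means an adjusted p under 0.05. Whether the 2 arrays of a group come from separate mice is not in the labels, and the p-values then cover only the spread between arrays. Array medians of intensity ran from 57.69 to 63.95 in the first set and from 25.35 to 25.71 in the second, and no level is set against one of another set. B4galnt2 was at 13.17 to 13.34 in the 4 arrays with the transgene and at 3.86 to 4.94 in 3 of the 4 without it, while mdx replicate 2 had 7.78; it was 10.54 and 10.56 with AAV-Galgt2 and 5.27 and 4.26 with PBS. Dmd, the dystrophin gene, was at 8.14 and 8.52 in mdx against 11.14 and 11.16 in wild-type muscle; transgenic mdx muscle, at 9.86 and 9.87, lay between them. Of the untransfected C2C12 pair, the array labelled myoblasts had the higher muscle genes (Myh4 9.60 against 4.40), against its label. The summed intensity of 7 muscle genes was 74840 to 85277 in the first set and 41547 to 46300 in the second, so muscle markers were high on every muscle array.

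The 300 bases around each member's transcription start (250 before it, 50 after it) were taken from RefSeq on GRCm38.p6, and all 7 members matched. S100a8 (chr3:90668821-90669120, plus strand) and S100a9 (chr3:90695672-90695971, minus strand) are shown because they are neighbours with 0 protein-coding genes between them and yet separated in 1 group. Ngp (chr9:110419558-110419857, plus strand) and Ltf (chr9:111019042-111019341, plus strand) are shown because they were high on 1 array of the first set and low on all arrays of the second. Capitals mark matches to the C/EBP motif, the binding motif of a transcription factor family that acts in granulocyte maturation.
S100a8: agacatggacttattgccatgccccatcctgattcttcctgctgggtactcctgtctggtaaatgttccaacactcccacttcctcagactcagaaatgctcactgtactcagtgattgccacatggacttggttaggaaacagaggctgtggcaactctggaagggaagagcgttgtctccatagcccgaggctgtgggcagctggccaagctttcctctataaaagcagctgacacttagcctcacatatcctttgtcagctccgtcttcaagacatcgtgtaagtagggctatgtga
S100a9: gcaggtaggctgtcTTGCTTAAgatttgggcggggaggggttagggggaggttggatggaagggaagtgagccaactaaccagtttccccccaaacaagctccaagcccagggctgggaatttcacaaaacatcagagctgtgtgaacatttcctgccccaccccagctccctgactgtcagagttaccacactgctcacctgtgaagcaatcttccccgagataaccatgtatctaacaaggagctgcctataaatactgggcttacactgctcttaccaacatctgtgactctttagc
Ngp: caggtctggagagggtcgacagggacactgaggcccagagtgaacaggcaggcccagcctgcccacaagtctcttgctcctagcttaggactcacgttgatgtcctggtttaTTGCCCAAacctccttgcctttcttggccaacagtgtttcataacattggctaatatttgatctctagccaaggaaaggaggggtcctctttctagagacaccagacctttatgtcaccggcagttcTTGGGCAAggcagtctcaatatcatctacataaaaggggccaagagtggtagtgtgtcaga
Ltf: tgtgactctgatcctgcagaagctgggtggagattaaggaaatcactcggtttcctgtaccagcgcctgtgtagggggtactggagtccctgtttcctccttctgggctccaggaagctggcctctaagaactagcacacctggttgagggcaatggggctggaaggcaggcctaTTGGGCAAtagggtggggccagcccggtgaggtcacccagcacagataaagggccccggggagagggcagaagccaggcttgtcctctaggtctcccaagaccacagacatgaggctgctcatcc

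The C/EBP motif was searched as TTGCNNAA and, for the other strand, TTNNGCAA. It was present in 5 of the 7 members (S100a9, Ngp, Lcn2, Ltf and Mmp8) and in 10.8% of all 32851 promoters of this length. Counted from the transcription start as 0, the matches began at -236 in S100a9, -138 and -11 in Ngp, -216 in Lcn2, -75 in Ltf and -19 in Mmp8. The motif of PU.1, another myeloid factor, was searched as GAGGAA and TTCCTC and was found in 4 members (S100a8, Lcn2, Ltf and Mmp8) against 28.3% of all promoters. The TATA box letters TATAAA or TTTATA were found in 3 members (S100a8, S100a9 and Mmp8) against 13.6%. None of the 6 C/EBP matches overlapped a match to either other motif. These are matches of letters only, and no factor binding was measured.

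None of the 7 members was called in any of the 6 comparisons. The pattern that the arrays show most plainly is a gap between replicates: all 7 members had their highest level of the first set on Galgt2 Transgenic replicate 1, and S100a8, S100a9, Lcn2 and Mmp8 had their highest level of the second set on mdx PBS replicate 2.

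S100a8 encodes the smaller subunit of calprotectin. Wild-type arrays had 6.51 and 6.89, mdx arrays 9.18 and 8.56, transgenic arrays 12.43 and 9.06, and transgenic mdx arrays 9.03 and 9.29. In the second set it was at 8.50 and 7.03 with AAV-Galgt2 and at 6.98 and 10.63 with PBS. In intensity units this is 91.46 and 118.5 in wild type against 5504 and 533 in the transgenic arrays, where the brighter array stood above 97.8% of all genes. Every array of the 3 other first-set groups was above both wild-type arrays, while the ranges of those 3 groups overlapped one another. The probe set carries the suffix _s_at, which in the array maker's naming means probes that other transcripts can share. On the 4 cell line arrays S100a8 was at 3.85 to 4.32.

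S100a9, the larger subunit of calprotectin, lay within 1.08 of S100a8 on 10 of the 12 muscle arrays and further below it on the other two. The 2 values were 6.25 and 7.58 for wild type, 9.22 and 8.45 for mdx and 11.90 and 8.55 for transgenic muscle. In transgenic mdx muscle it was at 5.93 and 7.0, within or below the wild-type range. In the second set it was at 7.42 and 6.00 with AAV-Galgt2 and at 6.19 and 9.91 with PBS. S100a8 minus S100a9 was -0.69 to 0.53 on the 6 arrays of wild-type, mdx and transgenic muscle and 3.09 and 2.30 on the transgenic mdx arrays. On the 4 arrays of the second set the same difference was 1.08 and 1.03 with AAV-Galgt2 and 0.79 and 0.72 with PBS. Those groups did not overlap, which in levels also held for 25.3% of all genes with AAV-Galgt2 higher and 18.6% with it lower. The offset between probe sets is not a ratio of transcripts. How it moved between groups was not tested as a contrast of its own. The transgenic mdx pair was also the group in which 1 array, replicate 2, had the largest 3' to 5' offset of the Gapdh control probes, 1.23 against 0.18 to 0.48 on the other 7 arrays of the set. Replicate 1 of that group, where the gap between the S100 genes was wider, was at 0.45. The 3' to 5' offset of the Actb control probes was high on both arrays of that group, 1.33 and 2.05, and on Galgt2 Transgenic replicate 1, 1.46, against 0.845 to 1.01 on the other 5 arrays of the set. The part of RNA quality in the gap between the S100 genes was not tested.

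**Figure D1:**
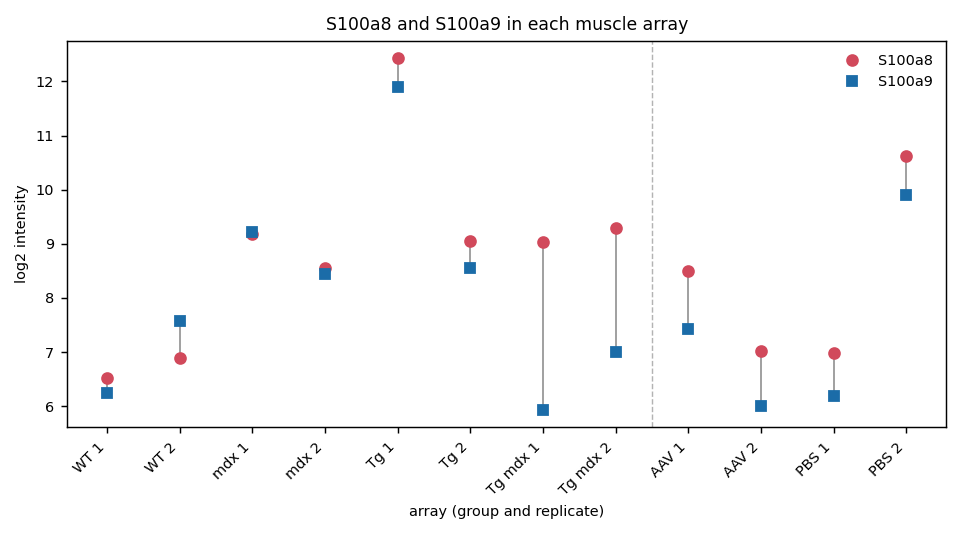
Log2 intensity of S100a8 (circles) and S100a9 (squares) on each of the 12 muscle arrays, joined by a line per array; the dashed line separates the array sets (Tg, Galgt2 Transgenic). The lines are long on the 2 transgenic mdx arrays, 3.09 and 2.30, and at most 1.08 on every other array.

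Ngp and Camp encode neutrophilic granule protein and the antimicrobial peptide cathelicidin. Ngp measured 4.66 and 5.08 (wild type), 6.16 and 4.81 (mdx), 10.19 and 6.66 (transgenic) and 4.44 and 4.98 (transgenic mdx). Camp measured 4.23 and 4.46 (wild type), 5.64 and 4.38 (mdx), 8.34 and 5.55 (transgenic) and 4.39 and 3.84 (transgenic mdx). Both transgenic arrays were therefore above both wild-type arrays for both genes, and mdx replicate 1 was the highest of the other 6 arrays for both. In the second set Ngp lay between 3.50 and 4.07 and Camp between 3.06 and 3.34 on all 4 arrays, the PBS array with high S100a8 included. On the cell line arrays, a set of their own with no blood cells, Ngp read 4.03 to 4.33 and Camp 3.70 to 4.08.

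Lcn2 and Ltf encode iron-withholding proteins of the secondary granule: lipocalin 2 binds bacterial siderophores and lactoferrin binds iron itself. Lcn2 measured 6.14 and 5.03 (wild type), 6.80 and 8.67 (mdx), 9.17 and 6.30 (transgenic) and 6.73 and 6.17 (transgenic mdx). In the second set it was lowest on PBS replicate 1, at 3.64, against 6.20 on PBS replicate 2 and 5.88 and 5.46 with AAV-Galgt2. Every mdx, transgenic and transgenic mdx array was above both wild-type arrays for Lcn2, and mdx replicate 2, not replicate 1, was the higher mdx array. Ltf measured 4.70 and 5.01 (wild type), 5.12 and 4.92 (mdx), 7.90 and 4.99 (transgenic) and 4.74 and 4.70 (transgenic mdx). Transgenic replicate 1 stood 2.78 above the next highest array of the set, and the other 7 lay between 4.70 and 5.12. On the second-set arrays Ltf was at 3.43 to 4.30, and in the cell lines at 4.68 to 5.14.

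Mmp8 encodes neutrophil collagenase, a protease that cuts fibrillar collagen. It was dim throughout: 3.24 and 3.57 (wild type), 4.20 and 4.55 (mdx), 5.05 and 3.39 (transgenic), 3.47 and 3.80 (transgenic mdx). Both mdx arrays were above both wild-type arrays, and of the transgenic arrays 1 was the highest of the set while the other lay below both mdx arrays. Second-set values were 3.64 and 3.42 with AAV-Galgt2 and 3.27 and 4.23 with PBS, and in the cell lines at 3.56 to 4.13. The mean order of the groups was transgenic above mdx for the other 6 members (Lcn2 all but level) and mdx above transgenic for Mmp8, with overlapping ranges in all but Ngp.

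**Figure D2:**
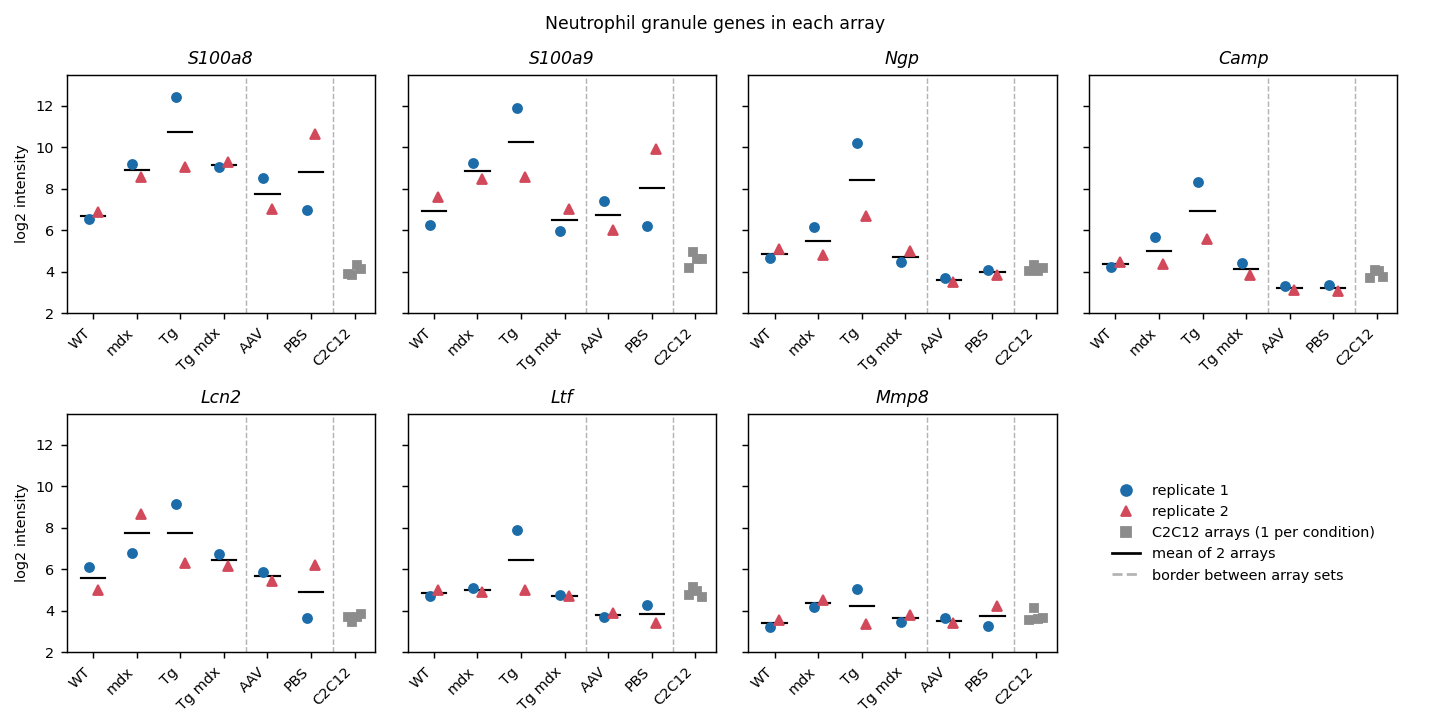
Log2 intensity of the 7 genes on each array, by group (Tg, Galgt2 Transgenic), with replicate 1 as circles, replicate 2 as triangles, the mean of 2 arrays as a bar, and the 4 C2C12 arrays as grey squares. Galgt2 Transgenic replicate 1 is the highest first-set point in all 7 panels by 0.51 (Lcn2, Mmp8) to 3.53 (Ngp) over the next highest array.

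Against wild type, all 7 members had a positive difference in mdx muscle and 0 of 7 were called, where 5.44% of all 18194 genes were called. Their median was 0.97 against 0.01 over all genes. S100a8 differed by 2.17 ± 1.16 (4.5-fold, adjusted p = 0.34), S100a9 by 1.92 ± 1.22 (3.79-fold, adjusted p = 0.445) and Lcn2 by 2.15 ± 1.00 (4.44-fold, adjusted p = 0.26), each higher in 2 of 2 mdx arrays. Mmp8 differed by 0.97 ± 0.47, and these 4 had non-overlapping groups with mdx the higher, as did 23.7% of all genes. Ngp, Camp and Ltf differed by 0.62 ± 0.86, 0.67 ± 0.71 and 0.16 ± 0.69, and their groups overlapped. No member reached an unadjusted p under 0.05, against 3704 of all genes. The sign for Ltf turned, to -0.12, when all arrays were shifted to the same median, which moves every gene in this comparison by -0.28; the other 6 members stayed positive.

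In transgenic against wild-type muscle, all 7 members were again positive, with a median of 2.60 against -0.05 over all genes, and 0 of 7 were called where 3.15% of all genes were. S100a8 differed by 4.04 ± 1.16 (16.4-fold, adjusted p = 0.107), S100a9 by 3.31 ± 1.22 (adjusted p = 0.228), Ngp by 3.56 ± 0.86 (11.8-fold, adjusted p = 0.0562) and Camp by 2.60 ± 0.71 (adjusted p = 0.0909). Lcn2 differed by 2.15 ± 1.00 (adjusted p = 0.369), Ltf by 1.59 ± 0.69 (adjusted p = 0.33) and Mmp8 by 0.81 ± 0.47 (adjusted p = 0.5). S100a8, S100a9, Ngp, Camp and Lcn2 had both transgenic arrays above both wild-type arrays, as had 20.5% of all genes. An unadjusted limma p under 0.05 was reached by 5 members, against 2585 of all 18194 genes. The size of these differences rested on 1 array. Without Galgt2 Transgenic replicate 1, S100a8 differed by 2.36, S100a9 by 1.64, Ngp by 1.79 and Camp by 1.21. In the same fit Lcn2 differed by 0.71, Ltf by 0.14 and Mmp8 by -0.02. Without Galgt2 Transgenic replicate 2, the high array stood alone. S100a8 then differed by 5.72, Ngp by 5.32, Camp by 3.99 and Ltf by 3.04. Tests in these 2 fits assume that the lone array varies like the other groups, so their p-values are not given.

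**Figure D3:**
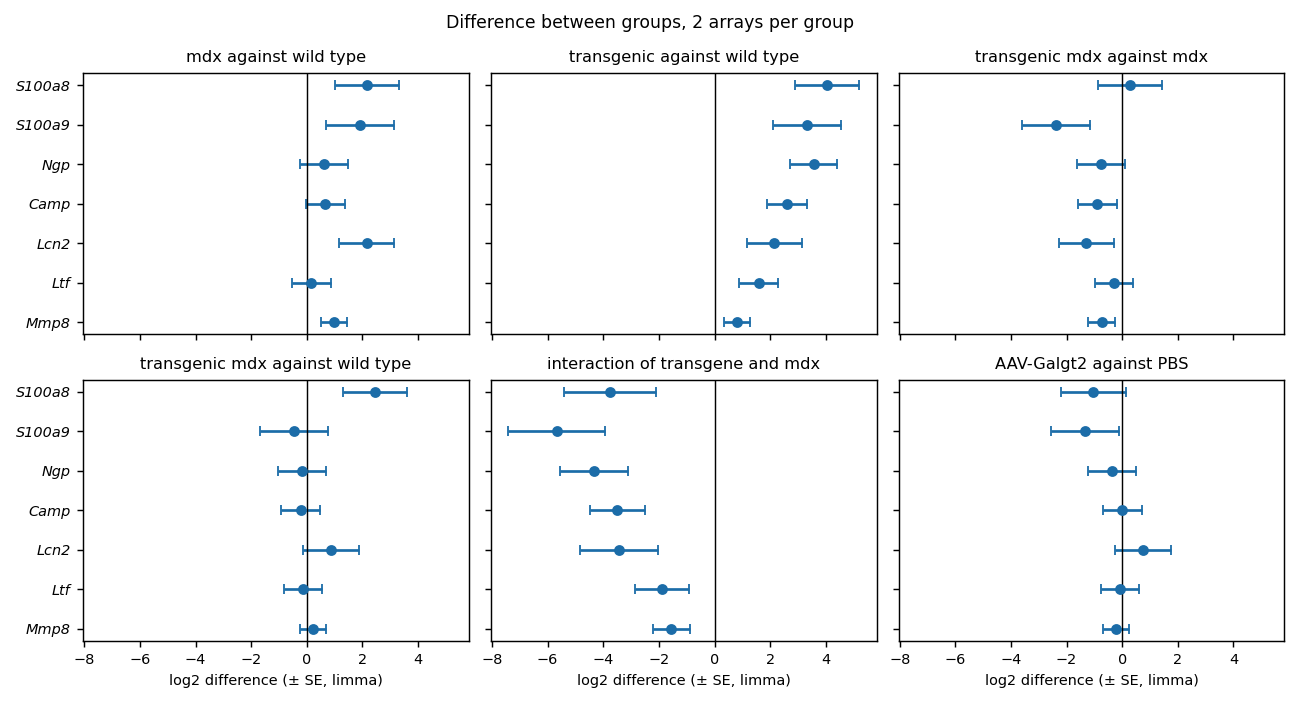
Log2 difference of each gene in the 6 comparisons, as a point with its limma standard error (2 arrays per group, 12 muscle arrays in the fit). The transgenic against wild-type differences run from 0.81 for Mmp8 to 4.04 for S100a8, with standard errors of 0.47 to 1.22; no point passed the adjusted threshold.

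In transgenic mdx against mdx muscle, 6 of 7 members had a negative difference, with a median of -0.77 against -0.01 over all genes, and 0 of 7 were called where 6.08% of all genes were. S100a9 had the largest difference, -2.37 ± 1.22 (5.16-fold lower, adjusted p = 0.311), and Lcn2 had -1.29 ± 1.00 (adjusted p = 0.537). Camp, Ngp, Mmp8 and Ltf had -0.89 ± 0.71, -0.77 ± 0.86, -0.74 ± 0.47 and -0.30 ± 0.69, and S100a8 had 0.29 ± 1.16. S100a9, Lcn2, Ltf and Mmp8 had both transgenic mdx arrays below both mdx arrays, as had 22.3% of all genes. No member had an unadjusted p under 0.05, against 3846 of all genes.

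In transgenic mdx against wild-type muscle the median was -0.13 against 0.01 over all genes, 3 of 7 differences were positive and 0 were called, where 7.28% of all genes were (0 members and 3873 of all genes at an unadjusted p under 0.05). S100a8 stood apart at 2.46 ± 1.16 (5.49-fold, adjusted p = 0.261), and Lcn2 had 0.87 ± 1.00; both had non-overlapping groups with transgenic mdx the higher, as had 27.8% of all genes. The other 5 lay between -0.45 ± 1.22 (S100a9) and 0.23 ± 0.47 (Mmp8). These values do not show that the groups are alike: Ngp, Camp, Ltf and Mmp8 were below the array median in both groups, and the error of S100a9 is wide. This comparison and the mdx and transgenic comparisons share the 2 wild-type arrays.

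The interaction asks whether the transgenic difference was the same in mdx and in other muscle, and strain also enters it. It was negative for all 7 members, with a median of -3.49 against 0.05 over all genes. It was largest for S100a9 (-5.68 ± 1.73, adjusted p = 0.228) and Ngp (-4.33 ± 1.22, adjusted p = 0.205), and smallest for Mmp8 (-1.55 ± 0.67, adjusted p = 0.39). Of the members 0 of 7 were called where 0.044% of all genes, 8 in number, were. An unadjusted limma p under 0.05 was reached by 6 members, against 2168 of all 18194 genes. Without Galgt2 Transgenic replicate 2, which leaves the high transgenic array alone, the interaction of Ngp was -6.10, of Camp -4.88 and of Ltf -3.34. Galgt2 Transgenic replicate 1 and mdx PBS replicate 2 were also left out together, a choice made after their values were seen. Ngp, Camp and Ltf then had -2.57, -2.10 and -0.43, and S100a9 had -4.01.

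The PBS muscles are the other side of the mice given AAV-Galgt2, but which arrays share a mouse is not in the labels, so the fit treats all 4 as independent. In the second set, AAV-Galgt2 against PBS gave differences of -1.04 ± 1.16 for S100a8 (adjusted p = 0.881), -1.34 ± 1.22 for S100a9 (adjusted p = 0.834) and 0.75 ± 1.00 for Lcn2 (adjusted p = 0.91). The other 4 lay between -0.37 ± 0.86 (Ngp) and 0.00 ± 0.71 (Camp). The median was -0.22 against 0.03 over all genes, and 0 of 7 members were called where 0% of all genes were. No member and 1506 of all genes had an unadjusted p under 0.05. Ngp alone had both AAV-Galgt2 arrays below both PBS arrays, as had 18.6% of all genes. The sign of the S100 difference was set by 1 array: without mdx PBS replicate 2, S100a8 was 0.78 and S100a9 0.52 higher with AAV-Galgt2, and without replicate 1 they were -2.86 and -3.20. Without replicate 2, 158 of all genes and 0 members were called.

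The spread between replicates set the members apart from most genes. The standard error of a 2-group difference was 0.26 at the median of all genes and 0.48 at their 95th percentile. For the members it ran from 0.47 (Mmp8, above 94.6% of genes) to 1.22 (S100a9). On the transgenic pair, replicate 1 exceeded replicate 2 by 3.37 for S100a8 (10.3-fold), 3.35 for S100a9, 3.53 for Ngp (11.5-fold), 2.79 for Camp, 2.88 for Lcn2, 2.90 for Ltf and 1.66 for Mmp8. The data used here carry no detection calls; Camp, Ltf and Mmp8 on replicate 2 were below that array's median of 5.89, so their gaps may understate the difference. Gaps as large in the same direction, replicate 1 above replicate 2, were seen in 0.0275% (Ngp) to 0.572% (Mmp8) of all genes. This array was the highest of the 8 for 4.19% of all genes, the lowest share of any first-set array, and for 7 of 7 members. Its Gapdh control-probe offset of 0.48 was below only that of transgenic mdx replicate 2, and so was its Actb offset of 1.46 (transgenic replicate 2, 0.845). Its median intensity of 62.73 was below only that of mdx replicate 1. The part of RNA quality in the members' levels on this array was not tested.

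On the PBS pair the members divided. Replicate 2 exceeded replicate 1 by 3.65 for S100a8 (12.5-fold), 3.71 for S100a9 (13.1-fold), 2.56 for Lcn2 (5.91-fold) and 0.96 for Mmp8. Ngp, Camp and Ltf were lower on that array, by differences of -0.21, -0.27 and -0.86. High S100a8 and S100a9 thus came without high Ngp, Camp and Ltf on that array, and with them on Galgt2 Transgenic replicate 1. S100a8 and S100a9 on PBS replicate 2 stood 2.13 and 2.49 above the next highest array of the set, and Lcn2 only 0.32. The Lcn2 gap came with a low PBS replicate 1, at 3.64.

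The other genes of the neutrophil programme were read on the same pair of arrays. Genes named in this paragraph and the next for their level on 1 array were chosen after their values were seen. Of 8 primary granule and serine protease genes, 5 were highest of the first set on Galgt2 Transgenic replicate 1 and exceeded replicate 2 by at least 1, with a list median gap of 1.56 against 0.04 over all genes. Mpo, myeloperoxidase, was at 7.67 there against 3.30 to 4.84 on the other 7 arrays. Ctsg, cathepsin G, was at 5.99 against 3.06 to 4.16, and Ms4a3, a marker of granulocyte precursors, at 7.04 against 4.53 to 5.29. Prtn3, proteinase 3, had 6.42 against 4.63 to 5.15. The 3 members of that list not highest there, Lyz2, Ctsd and Serpinb1a, are also expressed by macrophages. Of 18 other secondary, tertiary and late neutrophil genes 3 were highest on that array, of 16 surface receptor genes 3, and of 13 chemoattractants, growth factors and cytokines 2, where 4.19% of all genes were.

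On mdx PBS replicate 2 the order was different. Of the 13 chemoattractant genes 8 were highest of the second set there and 5 exceeded replicate 1 by at least 1, while of the 8 primary granule genes 3 were highest there and 0 exceeded replicate 1 by that much. Cxcl2, a neutrophil chemoattractant, was at 8.67 against 3.81 to 4.44 on the other 3 arrays. Cxcl5 was at 6.63 against 3.67 to 4.51, and the cytokine Il1b at 7.50 against 4.26 to 5.07. Mpo was at 2.97 there, against 3.08 to 3.28. Among late neutrophil genes 13 of 18 were highest on that array, with a median gap of 1.03, and of the surface receptors 11 of 16, among them Clec4e, a pattern receptor of neutrophils and macrophages, at 7.02 against 3.28 to 4.79. Over all genes, 3281, or 18%, were highest there.

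**Figure D4:**
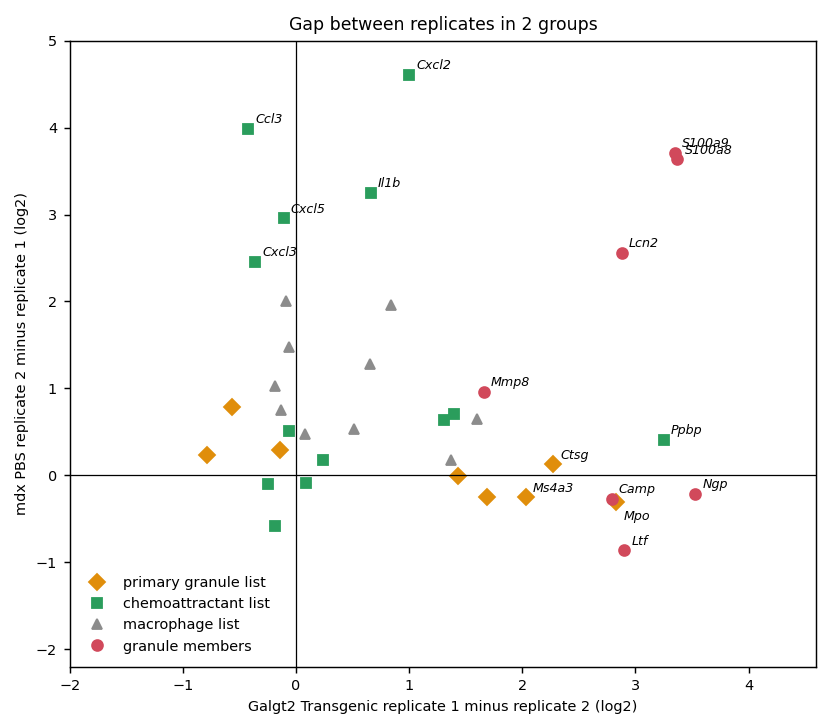
Gap between replicates in log2 units for the members (circles), primary granule genes (diamonds), chemoattractants (squares) and macrophage genes (triangles): Galgt2 Transgenic replicate 1 minus 2 along the x axis, mdx PBS replicate 2 minus 1 along the y axis. S100a8, S100a9 and Lcn2 are above 2.5 on both axes, Ngp, Camp and Ltf lie with Mpo at the right and below 0, and Cxcl2, Ccl3, Il1b, Cxcl5 and Cxcl3 lie at the top with x values of at most 1.

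Markers of other cells moved with each of these arrays. On Galgt2 Transgenic replicate 1, 2 of the 3 measured eosinophil genes were the highest of the set: Prg2, eosinophil major basic protein, at 7.14 against 3.57 to 4.65 and Epx, eosinophil peroxidase, at 6.18 against 3.96 to 4.78. The summed intensity of the eosinophil list was 255 there and 51 to 89 on the other 7 arrays. Of 6 red cell genes 2 were highest there, including Slc4a1, the red cell anion exchanger, at 8.64 against 4.25 to 5.10. Of the 6, 1 exceeded replicate 2 by at least 1. In transgenic against wild-type muscle the red cell list had a median difference of -0.19, with 2 of 6 positive. Of 4 platelet genes 2 were highest on Galgt2 Transgenic replicate 1, and of 10 macrophage genes 0. The summed macrophage intensity was 15697 on that array, between the 6483 to 9436 of wild-type and the 27583 to 27891 of mdx muscle. Of 7 bone genes 2 were highest there and 4 exceeded replicate 2 by at least 1, with a list median gap of 1.61. Of 5 genes of B cell precursors 1 was highest there, and of 4 erythroblast genes 3, among them Hemgn, a gene of blood cell precursors, at 7.14 against 2.94 to 3.92; these 3 lists were added after the data were seen. Of 7 lymphocyte, 9 skin and 4 adipocyte genes 0 were. On mdx PBS replicate 2, 9 of 10 macrophage genes were the highest of the set, with a summed intensity of 13822 against 8869 to 12128, and so were 1 of 3 eosinophil and 0 of 6 red cell genes. Of 9 skin and stratified epithelium genes 5 were highest on that array and 2 exceeded replicate 1 by at least 1, with a list median gap of 0.13 (summed intensity 596 against 443 to 545). The part of any of these cell types in the levels of the members was not tested.

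**Figure D5:**
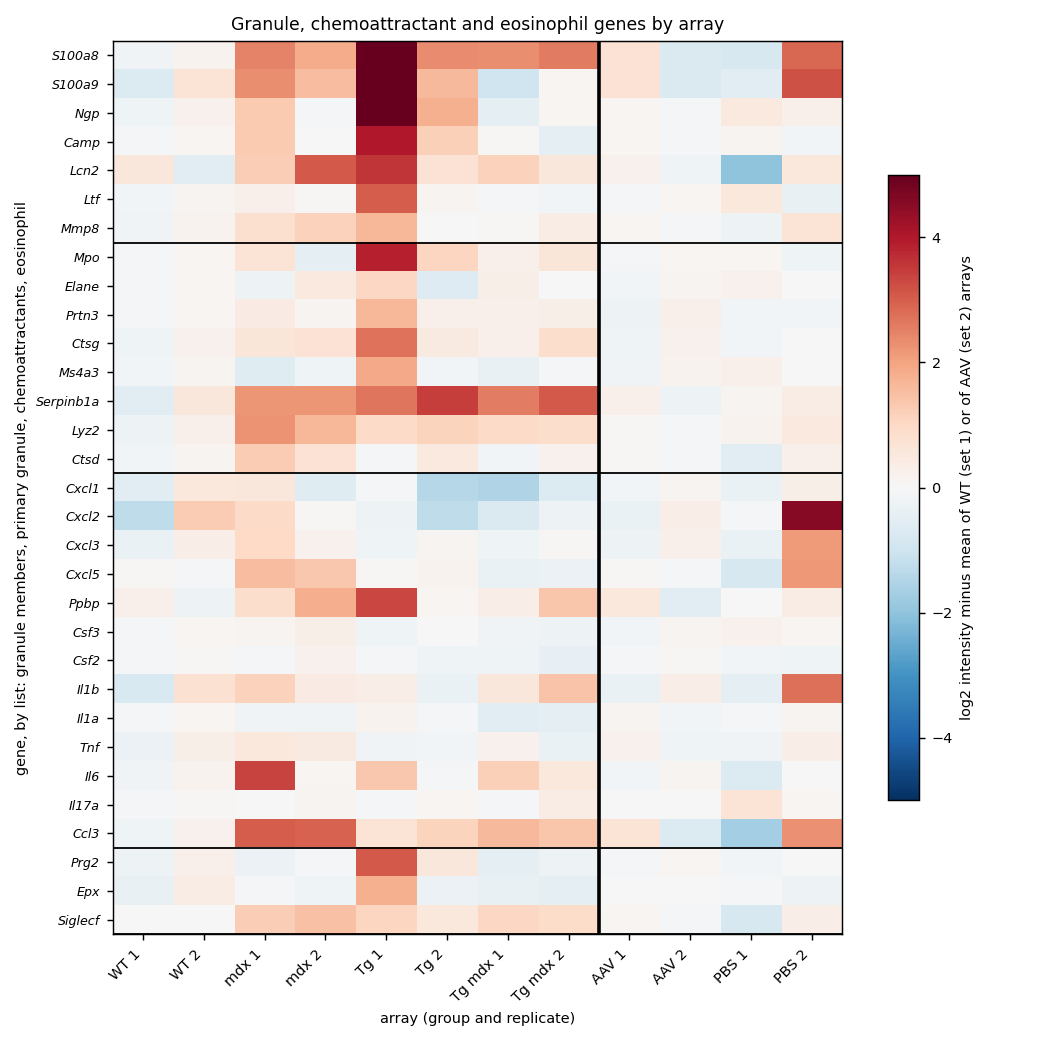
Log2 intensity of the members, 8 primary granule, 13 chemoattractant and 3 eosinophil genes on each muscle array, minus the mean of the wild-type arrays (first set) or of the AAV-Galgt2 arrays (second set); colours saturate at 5 log2 units and the vertical line separates the sets (Tg, Galgt2 Transgenic). Galgt2 Transgenic replicate 1 is above the wild-type mean for the members, least for Mmp8, and for Mpo, Ctsg, Prg2 and Epx. The mdx PBS replicate 2 array is above the AAV-Galgt2 mean for S100a8, S100a9, Cxcl2, Il1b and Cxcl5.

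Genes of the wider pathway were called where the members were not. In mdx against wild type, where 5.44% of all genes were called, 7 of 18 other secondary, tertiary and late neutrophil genes rose and 0 fell, with a list median of 1.44 against 0.01 over all genes. Chil3, a chitinase-like protein of neutrophils and macrophages, rose by 5.0 ± 0.90 (adjusted p = 0.0132), Itgb2, the shared beta chain of leukocyte integrins, by 3.63 ± 0.61 (adjusted p = 0.0104), Adam8 by 2.99 and Cybb, a subunit of the phagocyte oxidase, by 2.89. Of 16 surface genes 6 rose, led by Clec4d (5.47 ± 0.77, adjusted p = 0.00513) and the Fc receptor gene Fcgr4 (3.84 ± 0.37, adjusted p = 0.00171). Csf3r, the receptor for granulocyte colony-stimulating factor, rose by 1.54 ± 0.34 (adjusted p = 0.0282). The other 10 surface genes were not called. Among them Cxcr2, Trem1, Il1r2, Trem3 and Ceacam10 differed by 0.07 ± 0.34 (Ceacam10) to 0.29 ± 0.27 (Cxcr2). These genes, Csf3r, Mpo and Elane were singled out here after their values were seen. Most of the genes that rose are also expressed by macrophages, of which 6 of 10 genes on the list rose in the same comparison. On the list of 8 primary granule and serine protease genes 2 rose, Lyz2 (1.95 ± 0.25) and the protease inhibitor gene Serpinb1a (2.21 ± 0.38). Mpo differed by 0.10 ± 0.70 and Elane by 0.14 ± 0.45. Without WT replicate 1 or WT replicate 2, the count of 7 late neutrophil genes fell to 2 and 1, and that of 2 primary granule genes to 1 without WT replicate 1.

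In transgenic against wild-type muscle 3.15% of all genes were called. On the list of 8 primary granule and serine protease genes 1 rose, Serpinb1a, by 3.06 ± 0.38 (adjusted p = 0.00214). It encodes a protease inhibitor of neutrophils and is also expressed by macrophages. The other 7 were not called, among them Mpo, Ctsg, Prtn3 and Elane (adjusted p of 0.101, 0.209, 0.265 and 0.9). Of 16 surface genes 1 rose, Fcgr4, by 3.04 ± 0.37 (adjusted p = 0.00211). Of 10 macrophage genes 1 rose, Lgals3, by 3.20 ± 0.43 (adjusted p = 0.00302). Of 3 monocyte genes 1 rose, Plac8, by 2.7 ± 0.34 (adjusted p = 0.00214). Of the late neutrophil genes 0 of 18 were called, and 4 had an unadjusted p under 0.05. Leaving out Galgt2 Transgenic replicate 2 raised the primary granule and late counts, in a fit where the high array stands alone. In transgenic mdx against mdx muscle, with 6.08% of all genes called, 1 of 18 late genes, a share near that of all genes, fell, Cyba, a subunit of the phagocyte oxidase, by 2.10 ± 0.33 (adjusted p = 0.00674), and 2 of 16 surface genes did, Clec4d by 3.55 ± 0.77 (adjusted p = 0.0266) and Fcgr3 by 1.35 ± 0.33 (adjusted p = 0.0412). Of the primary granule genes Lyz2, lysozyme, fell by 1.04 ± 0.25 (adjusted p = 0.041), and of 10 macrophage genes 4 fell. The surface count was 0 when any of the 4 arrays compared was left out, and the Lyz2 count was 0 without mdx replicate 1 or either transgenic mdx array. In transgenic mdx against wild type, with 7.28% of all genes called, 1 of 8 primary granule genes rose, Serpinb1a (2.81 ± 0.38). Of 16 surface genes 2 rose, Fcgr4 (3.46 ± 0.37) and Selplg (1.65 ± 0.37), a selectin ligand, and of 18 late genes 0 were called.

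Of the transcription factors of granulocyte maturation, 2 of 5 rose in mdx muscle, where 5.44% of all genes were called. Both also act in macrophages. Cebpa rose by 1.91 ± 0.28 (adjusted p = 0.00573) and Spi1, which encodes PU.1, by 1.76 ± 0.29 (adjusted p = 0.00987). Gfi1, a factor of the granulocyte lineage named here after its value was seen, differed by 0.05 ± 0.22 (adjusted p = 0.94). Macrophage genes moved in the same comparisons, 6 of 10 higher in mdx against wild type and 4 of 10 lower in transgenic mdx against mdx, and their part in these 2 factors was not tested. Without WT replicate 1 the count was 0 and without WT replicate 2 it was 1. In transgenic mdx against mdx muscle both fell, Spi1 by 1.55 ± 0.29 (adjusted p = 0.0155) and Cebpa by 1.22 ± 0.28 (adjusted p = 0.0314); 0 of 5 were called in that comparison without either transgenic mdx array or without mdx replicate 2, and 1 without mdx replicate 1. In transgenic against wild-type muscle, where 5 members had an unadjusted p under 0.05, 0 of the 5 factors were called and 0 reached that p, with Cebpa at 0.58 ± 0.28 (adjusted p = 0.389).

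Of 13 chemoattractants and cytokines 0 were called by limma in any comparison, and at most 1 had an unadjusted p under 0.05; the smallest p in mdx against wild type was that of Ccl3, 2.98 ± 0.95 (adjusted p = 0.102). In that comparison 2 were called in a fit within the array set or without either PBS array, and 1 without mdx replicate 2. Among 6 receptors for the S100 proteins and lipocalin 2, Cd14 rose in mdx muscle by 2.77 ± 0.63 (adjusted p = 0.0323), and Tlr4, the receptor through which calprotectin signals, rose in transgenic mdx against mdx muscle by 1.93 ± 0.39 (adjusted p = 0.0199) and against wild type by 1.60 ± 0.39 (adjusted p = 0.034). Bsg, which encodes basigin, fell in transgenic mdx against mdx muscle by 1.54 ± 0.31 (adjusted p = 0.0195). The Cd14 call was lost without either wild-type array, the Tlr4 call against mdx without mdx replicate 2 or either transgenic mdx array, and the Bsg call without mdx replicate 1 or transgenic mdx replicate 2. The Tlr4 call against wild type was lost when any 1 wild-type, transgenic mdx or AAV-Galgt2 array was left out, in a fit within the array set, and with arrays shifted to the same median.

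The S100 genes of other cells had smaller standard errors than the members, 0.21 to 0.25 for those named. S100a4 rose by 2.08 ± 0.25 in mdx (adjusted p = 0.00309), by 2.76 ± 0.25 in transgenic (adjusted p = 0.000444) and by 2.87 ± 0.25 in transgenic mdx muscle (adjusted p = 0.000171), all against the same wild-type arrays. In transgenic muscle, where 3.15% of all genes were called, 3 of 7 such genes rose, with S100a13 by 1.74 ± 0.21 and S100a6 by 1.13 ± 0.22. On Galgt2 Transgenic replicate 1 only 2 of the 7 were highest of the set and 0 exceeded replicate 2 by at least 1. Of the 6 matrix metalloproteases other than Mmp8, 5 rose in mdx muscle, where 5.44% of all genes were called. Mmp12, the macrophage elastase, rose by 6.59 ± 1.27 (adjusted p = 0.0168) and Mmp3 by 2.21 ± 0.34 (adjusted p = 0.00752). Both fell in transgenic mdx against mdx muscle, by 6.00 ± 1.27 (adjusted p = 0.0242) and 1.75 ± 0.34 (adjusted p = 0.0182), where 6.08% of all genes were called. The mdx count was 1 without WT replicate 1 and 0 without WT replicate 2. The fall in Mmp3 and Mmp12 gave a count of 2, of 0 without mdx replicate 1 or transgenic mdx replicate 2, and of 1 without transgenic mdx replicate 1. In AAV-Galgt2 against PBS muscle 0 genes of any of these lists were called by limma, with 0 to 3 a list at an unadjusted p under 0.05.

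Pearson correlation between pairs of members over the 8 first-set arrays ran from 0.58 (Ngp with Lcn2) to 0.98 (Ngp with Camp). Without Galgt2 Transgenic replicate 1 it ran from -0.11 to 0.88, for the same pairs, and that of S100a8 with S100a9 went from 0.77 to 0.35. Among 9095 genes at or above the median level, the 5 whose levels followed the mean of the 7 members most closely over the 8 arrays were Myb (r = 0.91, 0.69 without the high array), Nav3 (0.79, 0.70), Carmil1 (0.79, 0.68), Polr3gl (0.78, -0.62) and 2410002F23Rik (0.77, 0.31). Myb, a transcription factor of blood cell precursors, was at 9.67 on Galgt2 Transgenic replicate 1, 8.32 on replicate 2, 7.08 on both wild-type arrays and 7.77 to 8.13 on the other 4. These correlations are descriptions over 8 arrays that share 1 extreme array.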

How the data were processed

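The deposited values are linear intensities per probe set, made by the authors with GCOS and RMA per the submitters' processing notes, which give no versions; whether the array sets were normalised together is not given in the sources used here. Labelled cDNA came from 25 ng of total RNA per the labels' protocols. Of 45101 probe sets, 34958 with 1 gene symbol were used, and each of 18194 genes was represented by its brightest probe set on average in muscle. Log2 values of the 12 muscle arrays were fitted with 1 mean per group, using limma 3.58.1 under R 4.3.3, eBayes and Benjamini-Hochberg adjustment over all genes, two-sided, threshold 0.05. The code was tested on simulated data. Arrays have no read depth; their number limits the precision.

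The members and lists were chosen with earlier results of these data known. Named are the members, up to 4 called genes per list and comparison (else up to 2 of smallest p), the 5 genes most like the members, and genes said to be chosen after their values were seen. Alternatives were array scaling, a fit within the set, the replicate block, another probe set rule, 16 added before the log, a filter on dim genes, another variance model and leaving out each array. Promoters are from RefSeq.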

Additional observations from a re-analysis of the deposited data

How the results depend on the processing

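Under every alternative that was run, no member that was tested was called in transgenic mdx against mdx or in AAV-Galgt2 against PBS. In transgenic against wild type, 1 member (Ngp) was called with arrays shifted to the same median, with the mean over probe sets and with an intensity trend and robust eBayes, and 0 to 4 when 1 array was left out. The 4 came without Galgt2 Transgenic replicate 2; without either mdx PBS array 1 was called, S100a8. In the interaction, 0 to 3 were called when 1 array was left out. Leaving out Galgt2 Transgenic replicate 1 and mdx PBS replicate 2 together was a choice made after the data were seen that removes the widest gaps. S100a8 was then called by limma in mdx and in transgenic mdx against wild type. That fit holds 1 array in each of 2 groups. Of the members' single differences under all alternatives, 773 kept their side of the threshold and sign, 14 became called, and 23 changed sign while uncalled. Whether replicate numbers pair arrays is not in the labels, and the mice behind the AAV-Galgt2 and PBS arrays could not be matched. Between groups of the first set the deviations of same-numbered arrays correlated at -0.44 (wild type with mdx) to 0.54 (wild type with transgenic). Between AAV-Galgt2 and PBS the correlation was -0.05. With the replicate block 0 members were called in each comparison, and the count over all genes in mdx against wild type went from 990 to 582; in transgenic mdx against mdx it went from 1107 to 677. A fit within the array set gave 365 in place of 573 for the transgenic, 643 in place of 1107 for transgenic mdx against mdx and 842 in place of 1324 for transgenic mdx, against wild type. Leaving out 1 array gave 132 to 1338, 184 to 653, 311 to 1290, 434 to 1575, 0 to 142 and 0 to 158 in the order of the report. Shifting arrays to the same median moved all genes by -0.29 to 0.16 over the comparisons and raised the mdx against wild type count to 1620, with 540 higher and 1080 lower in place of 682 and 308; the split was 314 and 327 in place of 386 and 187 for the transgenic, and 631 and 1048 in place of 894 and 430 for transgenic mdx, against wild type. The cause was not tested. The dim gene filter left out members below the median level over genes, Lcn2 among them, so under it only S100a8 and S100a9 were tested. Ngp, Camp, Ltf and Mmp8 were dimmer than the array median on most arrays, which limits how small a difference can be read. The 2 lone arrays are assumed to vary like the other groups.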
